A study of Mus musculus and Homo sapiens with 17 samples.

Results

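Clade B serpins are intracellular members of the serpin family of protease inhibitors, and 10 of them were followed here: Serpinb2, Serpinb3a, Serpinb3b, Serpinb3c, Serpinb5, Serpinb7, Serpinb8, Serpinb11, Serpinb12 and Serpinb13. They were selected on their symbols as clade B serpins of squamous epithelium, with their levels and fold changes in all groups in view, and make up 10 of 54532 named features in the mouse table. All 10 had counts and passed the filter on low counts. In the human table the same symbols in capitals were read, with SERPINB3 and SERPINB4 standing for the mouse Serpinb3 genes, which gave 9 of 58735 named features, all of them tested. Because they were proposed with results of these data known, their levels and fold changes are a description, and the adjusted p-values give each gene's place in a fit of the whole table, not independent support for the choice.

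The mouse libraries came from skin or lesions of C57BL/6-129 mice given DMBA, a mutagenic carcinogen, and TPA, a phorbol ester that promotes skin tumours. They formed 4 groups: squamous cell carcinoma (SCC) labelled Dusp1 KO (2 libraries), papilloma labelled Dusp1 KO (3), WT SCC (3) and WT skin (3). All of them, the skin included, share the DMBA and TPA treatment. Libraries of WT papilloma and of skin labelled KO were not analysed here, so papilloma against WT SCC joins a difference in genotype to one in lesion. The human libraries came from A431, an epidermoid carcinoma line, with 3 libraries of DUSP1 KO cells and 3 of control cells (sgRNA_Tomato). After intradermal injection of 100000 cells, tumours grew for 3 weeks in mice, and mouse cells were depleted before sequencing. The labels give no ages, no type of Dusp1 allele and no number of animals. Since they do not tie a library to an animal or culture, the spread behind each p-value may in part be technical. The descriptions of the 3 A431 KO libraries carry a tag, CL2, whose meaning is not given, and whether these cells were 1 clone is not stated. Replicates 2 and 3 also share the number that follows this tag, while replicate 1 has another. Their counts differed by more than sampling noise (chi-square per degree of freedom 4.79, against 12.1 and 10.9 for the other KO pairs and 3.34 to 6.44 for control pairs), so they were kept as separate libraries, though whether they share a tumour or culture is not stated.

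Serpins inhibit proteases by offering a reactive loop as bait, and cleavage of the loop traps the enzyme in a covalent complex. Clade B serpins lack a classical secretion signal and act mostly inside cells, where in stratified epithelia they are known for restraining cysteine and serine proteases of differentiation and cell death. Several were first described as antigens or markers of squamous carcinoma, such as SERPINB3 and SERPINB4, the squamous cell carcinoma antigens, and SERPINB5 (maspin), studied as a tumour suppressor without protease inhibition. DUSP1 is a phosphatase that inactivates MAP kinases, whose signalling feeds the AP-1 transcription factors.

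Library totals ran from 34378300 to 47883625 counts in mouse and from 41183478 to 53456450 in A431. Dusp1 itself, the gene named as knocked out, had 139 and 174 CPM (counts scaled to a library of 1000000) in the libraries labelled KO SCC, 129, 109 and 109.6 in those labelled KO papilloma, 73.3, 83.7 and 66.6 in WT SCC and 94.1, 109 and 52.4 in WT skin. Its transcript was thus not lower in the mouse libraries labelled KO. In SCC labelled KO it was 2.11-fold higher than in WT SCC, without overlap (log2 fold change 1.07 ± 0.25 SE, edgeR adjusted p = 0.0284). The groups labelled KO are named by their labels throughout. In A431, DUSP1 had 73.6, 71.0 and 77.1 CPM in KO cells and 471, 467 and 485 CPM in control cells. Counts of 4 Y-linked genes summed to 4779 in replicate 2 of the SCC labelled KO and to 0 in its replicate 1, to 0 in the 6 libraries of the papillomas labelled KO and of WT SCC, and to 6624, 9552 and 7 in WT skin, so the groups differ in their mix of sexes. The RNA came from whole sections although the labels name keratinocytes. Basal keratinocyte markers were abundant in every mouse group, but the 7 skeletal muscle markers summed to 11.6 to 21.2 CPM in SCC labelled KO, 11.4 to 13.6 in papilloma labelled KO, 9.61 to 130 in WT SCC and 5919 to 7249 in WT skin.

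All 10 mouse genes lie in 1 cluster of 749 kb on chromosome 1, at 106861173 to 107610484 on GRCm38 in the GENCODE M21 annotation. From the end near Vps4b their order is Serpinb5, Serpinb12 and Serpinb13 on the plus strand, Serpinb3a, Serpinb3b and Serpinb3c on the minus strand, with Serpinb3d between the first and the second of these, and then Serpinb11, Serpinb7, Serpinb2 and Serpinb8 on the plus strand, with Serpinb10 between the last pair. The annotated bodies of Serpinb3b and Serpinb3c overlap, as do those of Serpinb2 and Serpinb10, in both cases on the same strand, so reads there may have been credited to either gene. The Serpinb3 genes are also near copies: transcripts of Serpinb3a and Serpinb3b were identical at 93.1% of aligned bases, those of Serpinb3a and Serpinb3c at 92.1% and those of Serpinb3b and Serpinb3c at 94.0%. Of all windows of 75 bases in the longest coding transcript of Serpinb3a, 8.15% also occurred in another gene, against 2.28% for Serpinb3b, 2.59% for Serpinb3c and 0 for the other 7 genes, so counts of the Serpinb3 genes are uncertain where reads could be split between them. The 3 copies are shown here by 100 aligned bases around the TATA box near their RefSeq starts (GRCm38.p6, minus strand, at chr1:107052321-107052420, chr1:107161108-107161207 and chr1:107278355-107278454). Capitals mark the 8 positions where the copies differ. Most of the 100 bases lie before the start of each copy. They show how alike the copies are there, not in the transcripts that the counting had to separate.
Serpinb3a: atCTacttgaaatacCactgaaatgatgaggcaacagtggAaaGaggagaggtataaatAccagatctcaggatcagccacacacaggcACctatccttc
Serpinb3b: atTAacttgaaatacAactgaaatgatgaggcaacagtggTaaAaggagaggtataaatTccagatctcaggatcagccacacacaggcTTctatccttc
Serpinb3c: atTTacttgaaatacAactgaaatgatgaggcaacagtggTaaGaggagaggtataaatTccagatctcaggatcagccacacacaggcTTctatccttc

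The promoter windows were searched for TGANTCA, a loose form of the AP-1 motif that reads the same on both strands. Windows ran from 250 bases before to 50 after each RefSeq start (GRCm38.p6), which can differ from the start of the GENCODE gene body. Of the 9 genes with an entry, 6 held at least 1 match (66.7%), against 8.97% of 27025 genes with a promoter entry. The narrower TGAGTCA on either strand was present in 2 of the 9 windows (22.2%), those of Serpinb7 and Serpinb8, against 5.95% of the same 27025 genes. Because the genes were chosen with results known and several neighbour each other, these shares describe the windows and are not tested. The stretches of the 4 genes called between the SCC groups are printed here, with the match in capitals: Serpinb2 at chr1:107511302-107511362, where the match begins 94 bases before the first RefSeq start, Serpinb11 at chr1:107362211-107362271 (76 bases before, the nearer of its 2 matches, the other being TGATTCA at 181 bases before), Serpinb12 at chr1:106934377-106934437 (45 bases before) and Serpinb7 at chr1:107422617-107422677 (45 bases before), all on the plus strand.
Serpinb2: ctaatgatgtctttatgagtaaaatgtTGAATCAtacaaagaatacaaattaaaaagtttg
Serpinb11: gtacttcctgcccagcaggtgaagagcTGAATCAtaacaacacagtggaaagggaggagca
Serpinb12: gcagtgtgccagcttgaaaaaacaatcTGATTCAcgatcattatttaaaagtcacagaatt
Serpinb7: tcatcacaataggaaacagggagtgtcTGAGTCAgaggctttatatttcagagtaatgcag
Serpinb5 and Serpinb8 held a match as well. None lay in the windows of Serpinb3a, Serpinb3b and Serpinb3c, which says only that these letters are absent there.

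Serpinb2 (plasminogen activator inhibitor 2), an inhibitor of urokinase, had 673 and 491 CPM in SCC labelled KO, 284, 246 and 189 CPM in papilloma labelled KO, 33.6, 21.8 and 32.2 CPM in WT SCC and 98.0, 84.3 and 65.0 CPM in WT skin. Its 4 groups did not overlap: it was highest in SCC labelled KO and lowest in WT SCC, below treated skin. In bulk sections such a difference in level cannot be told apart from a difference in the share of the cells that express the gene, which holds for each gene that follows.

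Serpinb11, whose mouse protein inhibits trypsin-like proteases, had 201 and 197 CPM in SCC labelled KO, 101, 130.3 and 72.8 CPM in papilloma labelled KO, 58.5, 50.2 and 59.8 CPM in WT SCC and 24.6, 17.9 and 21.8 CPM in WT skin. Here too no group overlapped another, and the order ran down from SCC labelled KO over papilloma and WT SCC to skin. Serpinb12, another inhibitor of trypsin-like proteases, had 1115 and 1192 CPM in SCC labelled KO, 438, 1060.3 and 484 CPM in papilloma labelled KO, 453, 299 and 338 CPM in WT SCC and 26.5, 51.5 and 31.6 CPM in WT skin. It followed the same order, except that papilloma and WT SCC overlapped, and papilloma replicate 2 stood close to the 2 libraries of SCC labelled KO.

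Serpinb3a, a mouse counterpart of the squamous cell carcinoma antigens, had 407 and 468 CPM in SCC labelled KO, 128, 556 and 226 CPM in papilloma labelled KO, 195, 145 and 167 CPM in WT SCC and 52.0, 36.0 and 30.5 CPM in WT skin. The papillomas spread across the ranges of both SCC groups, and skin was below all lesions. Serpinb3b had 34.2 and 31.6 CPM in SCC labelled KO, 76.0, 82.6 and 50.3 CPM in papilloma labelled KO, 26.02, 20.1 and 24.9 CPM in WT SCC and 23.6, 41.7 and 14.9 CPM in WT skin. It was highest in papilloma, with no overlap with any other group, while skin spanned the range of both SCC groups. Serpinb3c was near the lower limit, with 3 and 10 counts in SCC labelled KO, 7, 249 and 52 in papilloma labelled KO, 0, 5 and 10 in WT SCC and 2, 16 and 14 in WT skin. Only 2 papilloma libraries reached 1 CPM, with 6.06 and 1.36 CPM, and a floor of 3 counts corresponds to 0.0529 to 0.0871 CPM in a mouse library. Within the sum of Serpinb3a, Serpinb3b, Serpinb3c and Serpinb3d, Serpinb3b took 6.31 to 7.74% in SCC labelled KO, 12.6 to 36.8% in papilloma labelled KO, 11.7 to 12.9% in WT SCC and 31.1 to 52.6% in WT skin.

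Serpinb5 (maspin) had 1056 and 809 CPM in SCC labelled KO, 833, 817 and 573 CPM in papilloma labelled KO, 785, 637 and 622 CPM in WT SCC and 320.5, 379 and 402 CPM in WT skin. The lesions formed 1 overlapping range, apart from the 2 SCC groups, which did not overlap each other, and skin lay below them all. Serpinb8, known in human cells as an inhibitor of furin, had 66.96 and 65.4 CPM in SCC labelled KO, 92.0, 80.8 and 65.0 CPM in papilloma labelled KO, 65.6, 59.5 and 56.6 CPM in WT SCC and 88.6, 74.95 and 62.3 CPM in WT skin. Each of its groups overlapped its neighbour in the order of means, and it varied least among the 10 genes, with an SD of log2 CPM over the 11 libraries of 0.23 against 0.55 to 2.78 for the others.

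Serpinb7, a serpin of the upper epidermis, had 2.71 and 3.40 CPM in SCC labelled KO, 16.7, 13.02 and 8.52 CPM in papilloma labelled KO, 0.52, 0.35 and 1.42 CPM in WT SCC and 99.6, 92.4 and 50.9 CPM in WT skin. No 2 groups overlapped, with skin highest, papilloma next and WT SCC lowest. Serpinb13 (headpin), with the same order of group means, is an inhibitor of cathepsins K and L. It was also near the lower limit, with 1 and 7 counts in SCC labelled KO, 15, 21 and 24 in papilloma labelled KO, 0, 0 and 5 in WT SCC and 64, 53 and 67 in WT skin. In CPM it reached at most 0.17 in SCC labelled KO, and stood at 0.40, 0.51 and 0.63 in papilloma labelled KO, at most at 0.12 in WT SCC and at 1.59, 1.07 and 1.18 in WT skin. Skin was highest and papilloma next, without overlap, and the SCC groups overlapped.

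**Figure D1:**
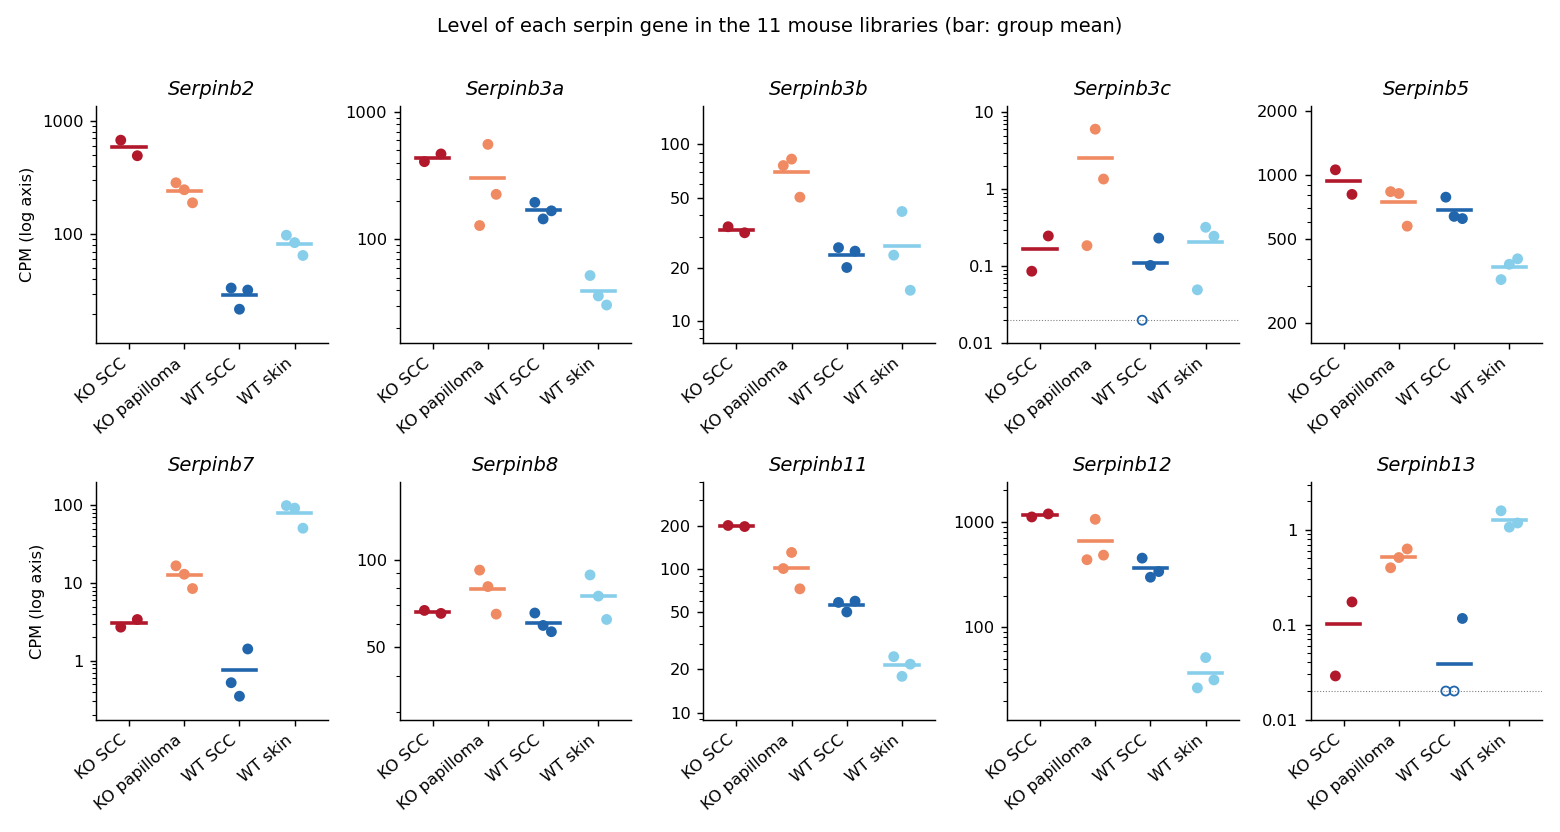
Level of each mouse gene in CPM on a log axis, 1 point per library and a bar at the group mean, with the groups from left to right as SCC labelled KO, papilloma labelled KO, WT SCC and WT skin. Libraries without a count are hollow points on a dotted line drawn at 0.02 CPM. Serpinb2 is lowest in WT SCC, Serpinb11 and Serpinb12 are lowest in skin, and Serpinb7 and Serpinb13 are highest in skin.

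To set genes against each other, CPM was divided by annotated exon length, which can exceed the longest coding transcript. The 2 lengths were 2498 and 1689 bases for Serpinb12 and 2750 and 2672 for Serpinb5. They were 2349 and 1996 bases for Serpinb2 and 1631 and 1620 for Serpinb3a. The order of genes close in level therefore depends on the length used. By exon length, Serpinb12 led in SCC labelled KO with a mean of 462 CPM per kb. Serpinb5 followed with 339, Serpinb3a with 268, Serpinb2 with 248 and Serpinb11 with 91.1 CPM per kb. In papilloma labelled KO, Serpinb5 and Serpinb12 were close by exon length, at 269 and 264 CPM per kb, followed by Serpinb3a with 186 and Serpinb2 with 102. Serpinb5 led in WT SCC with 248 CPM per kb, ahead of Serpinb12 with 145 and Serpinb3a with 104, and Serpinb2 there had 12.4. It led again in WT skin with 133 CPM per kb, ahead of Serpinb7 with 41.4 and Serpinb2 with 35.1, while Serpinb12 had 14.6. Serpinb3c and Serpinb13 were the lowest pair in SCC labelled KO, papilloma labelled KO, WT SCC and WT skin, with means from 0.023 to 1.53 CPM per kb.

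The counts of the 10 genes together came to 3556 and 3258 CPM in SCC labelled KO, 1969, 2992 and 1669.8 CPM in papilloma labelled KO, 1617, 1232 and 1302 CPM in WT SCC and 735, 779 and 680.2 CPM in WT skin. Each papilloma library was above each WT SCC library, and skin was below all lesions. Serpinb2 supplied 18.9 and 15.1% of the sum in SCC labelled KO, 14.4, 8.23 and 11.3% in papilloma labelled KO, 2.08, 1.77 and 2.47% in WT SCC and 13.3, 10.8 and 9.55% in WT skin. Serpinb5 supplied 29.7 and 24.8% in SCC labelled KO, 42.3, 27.3 and 34.3% in papilloma labelled KO, 48.5, 51.7 and 47.7% in WT SCC and 43.6, 48.6 and 59.1% in WT skin, so that Serpinb12, with 31.4 and 36.6%, passed it in both libraries of SCC labelled KO, and with 35.4% in papilloma replicate 2. The other clade B serpins, of which 17 of 18 listed were in the table, summed to 1067 and 771 CPM in SCC labelled KO, 631, 750 and 564 CPM in papilloma labelled KO, 704, 572 and 572 CPM in WT SCC and 601, 480 and 407 CPM in WT skin.

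**Figure D2:**
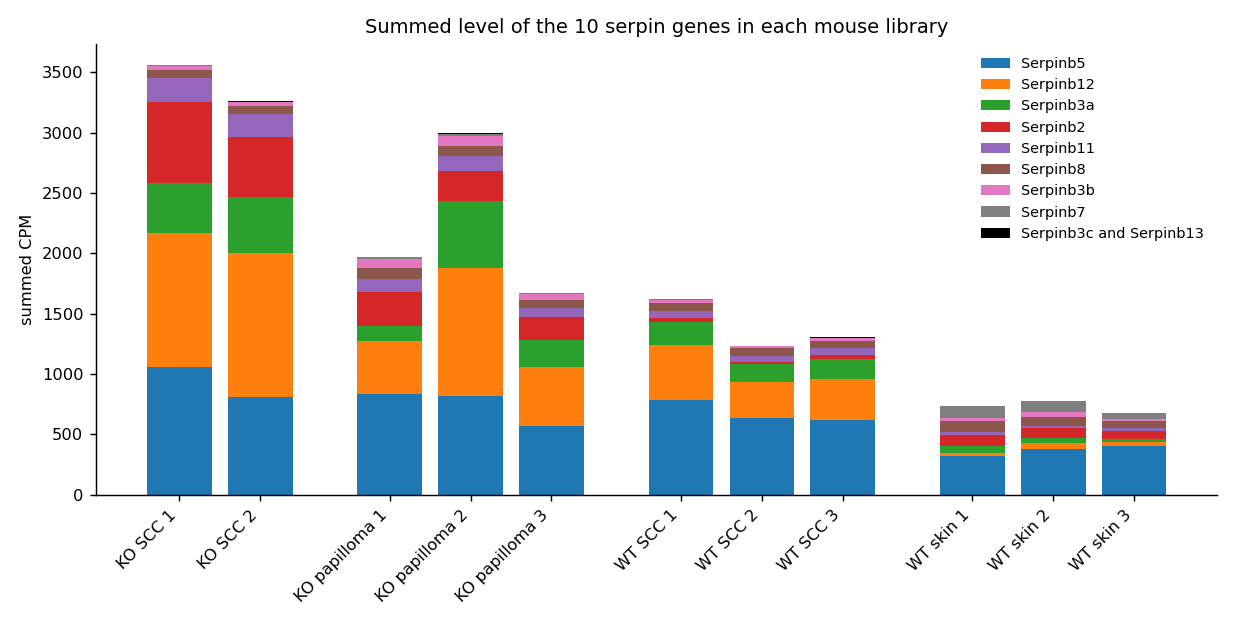
Summed CPM of the 10 genes in each mouse library, stacked by gene on an axis that starts at 0. The bars reach 3556 and 3258 CPM in SCC labelled KO and 735, 779 and 680.2 CPM in WT skin, and the Serpinb2 layer is thin in the 3 WT SCC libraries.

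The first comparison set SCC labelled KO against WT SCC, the only comparison of genotypes within 1 kind of lesion. Serpinb2 was 19.9-fold higher (log2 fold change 4.32 ± 0.27 SE, adjusted p = 1.64e-05). Serpinb7 was 3.99-fold (2.0 ± 0.50, adjusted p = 0.0372), Serpinb11 3.55-fold (1.83 ± 0.22, adjusted p = 0.00123) and Serpinb12 3.18-fold (1.67 ± 0.38, adjusted p = 0.0247) higher. These 4 of 10 passed the threshold of 0.05 and none was lower, where 7.87% of all 22371 tested genes were called, 4.48% higher and 3.38% lower. For 7 genes the groups did not overlap, all higher in SCC labelled KO, where 22.9% of all genes were higher without overlap and 23.7% lower. Since the serpins were chosen with this comparison known, nothing is read from either count. The other 6 gave values without a call: Serpinb3a 1.37 ± 0.46 (adjusted p = 0.0927), Serpinb5 0.45 ± 0.21 (0.204), Serpinb3b 0.48 ± 0.35 (0.437), Serpinb8 0.13 ± 0.18 (0.715), Serpinb13 1.32 ± 1.17 (0.537) and Serpinb3c 0.55 ± 1.41 (0.865), all as log2 fold changes. The median log2 fold change of the 10 genes was 1.35, against -0.01 over all tested genes. The calls of Serpinb2 and Serpinb11 held when any 1 library of the 2 groups compared was left out. With 1 of the 2 libraries of SCC labelled KO left out, the remaining one is assumed to vary like the other groups. Those of Serpinb7 and Serpinb12 were both lost without KO SCC replicate 1 (adjusted p = 0.142 and 0.129), KO SCC replicate 2 (0.144 and 0.0935) or WT SCC replicate 2 (0.125 and 0.111), which left 2 calls. The Serpinb7 call was also lost without WT SCC replicate 1 (0.0977), and that of Serpinb12 without WT SCC replicate 3 (0.0835). With a Y-chromosome covariate, chosen after seeing the data, Serpinb7 had an adjusted p of 0.0722.

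Proteases and inhibitors around these genes were read from lists of related genes. Of 6 tested genes of the plasminogen system, Serpinb2 and Plaur were higher and Plau was lower. Plau (urokinase), the protease that Serpinb2 inhibits, had 76.5 and 118.5 CPM in SCC labelled KO and 178, 196 and 176 CPM in WT SCC, and was 1.88-fold lower (-0.91 ± 0.25, adjusted p = 0.0486). Plaur, the urokinase receptor, had 20.6 and 25.5 CPM in SCC labelled KO and 10.6, 10.2 and 13.5 CPM in WT SCC, and was 2.02-fold higher (adjusted p = 0.0357). Of the 15 tested other clade B serpins, 1 was higher, Serpinb1a (2.39-fold, adjusted p = 0.0122), an inhibitor of neutrophil serine proteases encoded on chromosome 13, and none was lower. Of these 15, 6 were higher and 0 lower without overlap, and their median log2 fold change was 0.53. Of 16 tested inhibitors of other families, 3 were higher and none lower: Spink5, which inhibits epidermal kallikreins (9.01-fold, adjusted p = 0.000761), Wfdc5 (3.54-fold, 0.0034) and the stefin gene Stfa2l1 (5.92-fold, 0.0111). The suprabasal keratinocyte markers, 16 of 17 in the table, summed to 47882 to 50398 CPM in SCC labelled KO and 22114 to 22773 CPM in WT SCC, with 7 called higher and 1, Krt10, lower. Krt13, Krt16 and Krt6a made up most of that sum in both groups. Their means were 15188, 13882 and 12445.5 CPM in SCC labelled KO and 2028, 9661 and 6699.6 CPM in WT SCC. Without overlap, 12 of the 16 were higher and 2, Krt10 and Flg, were lower. Basal markers summed to 45539 to 49251 CPM in SCC labelled KO and 36174 to 38546 CPM in WT SCC, and no marker of either list was at 0. Most of that sum was Krt14, with 40073.7 and 37238 CPM in SCC labelled KO and 28074, 26739 and 24951 CPM in WT SCC. The other 7 of the 8 basal markers were lower without overlap, with 1 called, Krt15 (2.37-fold lower, adjusted p = 0.00313), and a median log2 fold change of -0.61 over the list. Neutrophil markers summed to 1217 to 1923 CPM in SCC labelled KO and 652 to 854 CPM in WT SCC, most of it from S100a8 and S100a9. None of the 8 tested neutrophil markers was called, with 5 higher and 1, Csf3r, lower without overlap. Macrophage markers, all 9 in the table, summed to 239.6 to 295 CPM in SCC labelled KO and 480.04 to 641 CPM in WT SCC, with 6 lower without overlap and 1 called, Lyz2 (3.93-fold lower, adjusted p = 0.0250). The part of these shifts in the serpin values was not tested.

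The second comparison set papilloma labelled KO against WT SCC, and it shares the WT SCC libraries with the first. Serpinb7 was 16.6-fold higher (4.05 ± 0.48, adjusted p = 0.000741) and Serpinb2 8.20-fold higher (3.04 ± 0.24, adjusted p = 0.000109). Serpinb3b was 2.94-fold (1.56 ± 0.32, adjusted p = 0.0171) and Serpinb11 1.8-fold (0.85 ± 0.20, adjusted p = 0.0296) higher. Thus 4 of 10 passed the threshold, where 5.25% of all tested genes were called, 3.49% higher and 1.77% lower. Nothing is read from this count either. No call was made for Serpinb3c (4.43 ± 1.28, adjusted p = 0.0760) and Serpinb13 (3.60 ± 1.03, adjusted p = 0.0736), whose fitted values rest on 15 and 5 counts in WT SCC, nor for Serpinb12 (0.86 ± 0.34, 0.198), Serpinb3a (0.84 ± 0.42, 0.303), Serpinb8 (0.39 ± 0.16, 0.205) and Serpinb5 (0.12 ± 0.19, 0.795). The median log2 fold change was 1.21, against 0.02 over all tested genes. Serpinb2 and Serpinb7 kept their calls when any 1 library of the 2 groups compared was left out. Leaving out WT SCC replicate 1, WT SCC replicate 2 or papilloma replicate 2 ended the calls of Serpinb3b (adjusted p = 0.0572, 0.0905 and 0.0506) and of Serpinb11 (0.0884, 0.143 and 0.0744) and left 2 calls. Both were also lost without papilloma replicate 1 (0.0599 and 0.0839), where Serpinb3c gained a call (0.0425), and without WT SCC replicate 3 (0.0570 and 0.0765), where Serpinb13 gained one (0.0156). Without a filter on low counts 8 of the 10 were called, and with DESeq2 6. Calls over all genes under these settings are given at the end, and nothing is read from the counts of serpins.

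Among related genes in the same comparison, none of the 15 tested other clade B serpins was called in either direction. Their median log2 fold change was 1.06, with 2 higher and 0 lower without overlap, and that of the 16 tested inhibitors of other families was 0.99. Of the 8 tested target proteases 1 was higher, Cma1, the mast cell chymase (2.64-fold, adjusted p = 0.00766), with 12.5, 21.5 and 16.4 CPM in papilloma labelled KO and 5.37, 5.62 and 8.06 CPM in WT SCC. Mast cell markers, all 7 of them in the table, summed to 69.3 to 124 CPM in papilloma labelled KO and 32.5 to 49.2 CPM in WT SCC, with 4 called higher. Macrophage markers summed to 242 to 368 CPM in papilloma labelled KO and 480.04 to 641 CPM in WT SCC, with 1 of 9 called, Lyz2 (3.13-fold lower, adjusted p = 0.0308). Of the 16 other inhibitors 7 were higher and none lower, among them Spink5 (3.65-fold, adjusted p = 0.00464), Wfdc5 (2.76-fold, 0.00485), Cst6, a cystatin of the cornified layer (2.26-fold, 0.00578), and Stfa2l1 (4.33-fold, 0.0191). Suprabasal markers summed to 36088 to 50264 CPM in papilloma labelled KO and 22114 to 22773 CPM in WT SCC, with 11 of 16 called higher and none lower. The part of these marker shifts in the serpin values was not tested.

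The third comparison set SCC labelled KO against papilloma labelled KO. No serpin of the 10 was called by edgeR, where 0.286% of all genes were (0.0492% higher and 0.237% lower), while 5 had an unadjusted p under 0.05, DESeq2 called 4 and edgeR without a filter on low counts called 5. The share of all genes with such an unadjusted p is not given here. Calls over all genes under the other settings are given at the end. Nothing is read from these counts of serpins. Serpinb2 came closest, with a log2 fold change of 1.28 ± 0.25 (adjusted p = 0.0677). Serpinb11 had a log2 fold change of 0.98 ± 0.21 (adjusted p = 0.105) and Serpinb12 of 0.80 ± 0.38 (0.333), and in these 3 genes each SCC library was above each papilloma library. The opposite held for Serpinb7 (-2.06 ± 0.49, adjusted p = 0.132), Serpinb3b (-1.08 ± 0.36, 0.214) and Serpinb13 (-2.28 ± 1.09, 0.340), whose SCC libraries were all below the papillomas. Groups without overlap made up 16.1% of all genes on the higher side and 15.5% on the lower side. Without papilloma replicate 2, Serpinb11 passed the threshold (1.20, adjusted p = 0.0477).

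The fourth comparison set WT SCC against WT skin, both treated with DMBA and TPA. Serpinb12 was 9.94-fold (3.31 ± 0.37, adjusted p = 8.12e-05), Serpinb3a 4.28-fold (2.10 ± 0.44, 0.00321), Serpinb11 2.62-fold (1.39 ± 0.20, 0.000324) and Serpinb5 1.86-fold (0.89 ± 0.19, 0.00350) higher in WT SCC. Serpinb7 was 105-fold lower (-6.72 ± 0.52, adjusted p = 1.11e-05), Serpinb13 30.2-fold lower (-4.91 ± 1.05, 0.00376), a value that rests on 5 counts in WT SCC, and Serpinb2 2.82-fold lower (-1.50 ± 0.23, 0.000529). The Serpinb7 value rests on 0.35 to 1.42 CPM in WT SCC. With 4 higher and 3 lower, 7 of 10 were called, against 40.5% of all genes (16.9% higher and 23.6% lower), and the median log2 fold change over all genes was -0.16. No call was made for Serpinb3b (-0.18 ± 0.31, adjusted p = 0.670), Serpinb3c (-0.85 ± 1.23, 0.600) and Serpinb8 (-0.31 ± 0.16, 0.131). The 7 calls held without any 1 library of WT SCC or WT skin.

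Markers of other cell types differed widely between these groups. Skeletal muscle markers summed to 9.61 to 130 CPM in WT SCC and 5919 to 7249 CPM in WT skin, fibroblast markers to 2386 to 4054 CPM in WT SCC and 4818 to 36471 CPM in WT skin, and basal keratinocyte markers to 36174 to 38546 CPM in WT SCC and 6871 to 14695 CPM in WT skin. Macrophage markers summed to 480.04 to 641 CPM in WT SCC and 851 to 2174 CPM in WT skin, with 8 of 9 called lower. Their part in the serpin values was not tested. Of the 15 tested other clade B serpins, Serpinb1a was higher (3.87-fold, adjusted p = 9.10e-05), and Serpinb6e, Serpinb1c and Serpinb9 were lower (32.0-fold, 17.9-fold and 1.74-fold). Plau (2.18-fold, adjusted p = 0.00222) and Furin (2.07-fold, 0.00398), a proprotein convertase, were higher in WT SCC, and Cma1 and Ctsk, the gene of cathepsin K, were among the 3 target proteases that were lower.

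**Figure D3:**
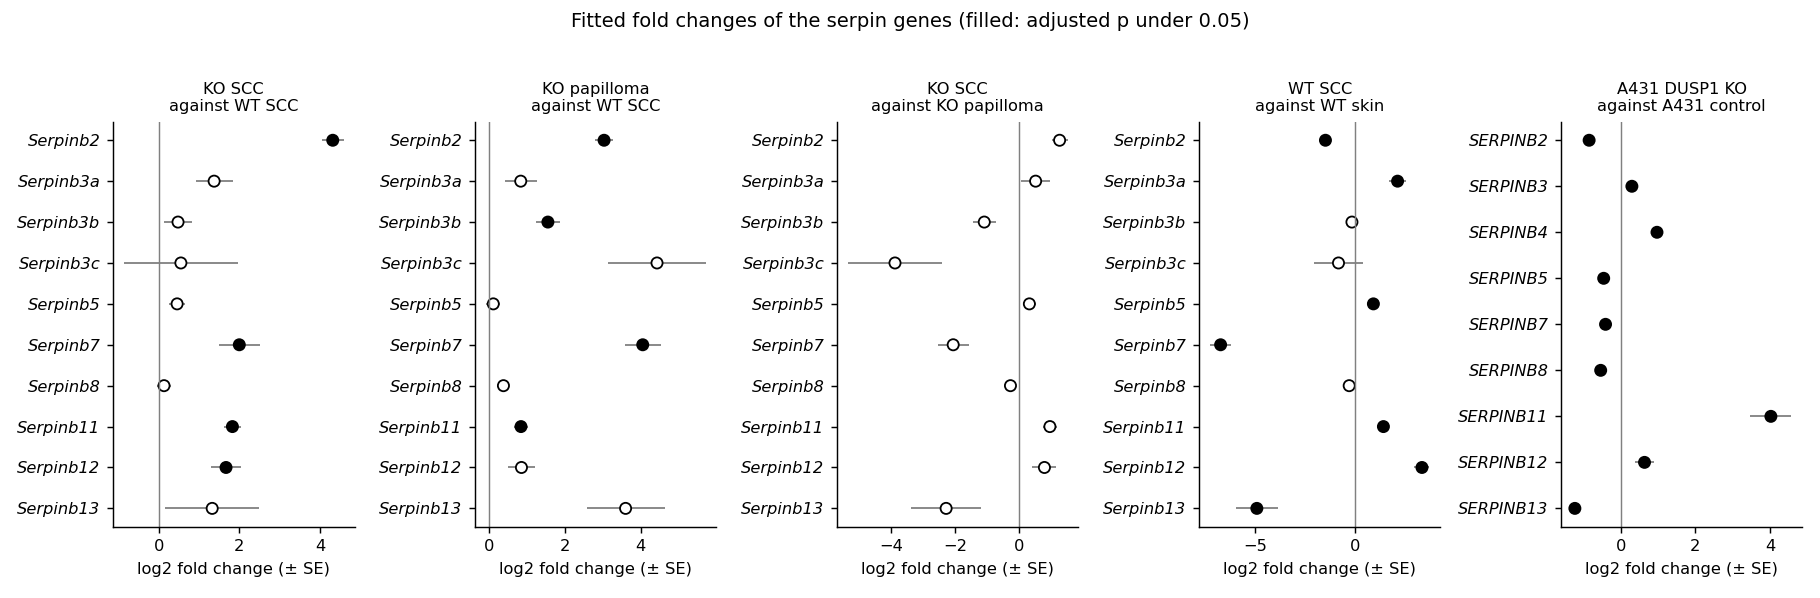
Fitted log2 fold changes with their SE for the 10 mouse genes in the 4 mouse comparisons and for the 9 human genes in A431, with filled points for an adjusted p under 0.05 and a separate scale in each panel. All 10 mouse values are above 0 in both comparisons with WT SCC, which share those libraries.

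Along the cluster, the genes called in SCC labelled KO against WT SCC were Serpinb12 on the one side and Serpinb11, Serpinb7 and Serpinb2 on the other, with Serpinb13 and the Serpinb3 genes between them and Serpinb5 and Serpinb8 at the ends without a call. Of the 6 neighbours in the mouse table, namely Phlpp1, Bcl2, Kdsr and Vps4b beyond Serpinb5 and the interspersed Serpinb3d and Serpinb10, none was called in any comparison that involved libraries labelled KO. In SCC labelled KO against WT SCC, 4 of the 6 were higher without overlap, namely Phlpp1, Kdsr, Vps4b and Serpinb10, and 0 lower. Over all genes, 22.9% were higher without overlap. The log2 fold changes of Phlpp1, Kdsr and Vps4b were 0.33, 0.06 and 0.34. Serpinb10, a polymorphic pseudogene that overlaps Serpinb2, had 58.8 and 50.04 CPM in SCC labelled KO and 29.8, 23.8 and 25.7 CPM in WT SCC (log2 fold change 1.04 ± 0.38, adjusted p = 0.119). Serpinb3d had 0.43 and 0.62 CPM in SCC labelled KO, 1.67, 9.29 and 3.25 CPM in papilloma labelled KO and 0.70, 0.45 and 0.70 CPM in WT SCC, and like Serpinb3b it was highest in the papillomas (2.94 ± 0.78 against WT SCC, adjusted p = 0.0555). In WT SCC against WT skin, Kdsr was lower (-0.55 ± 0.11, adjusted p = 0.00257) and Vps4b higher (0.41 ± 0.13, adjusted p = 0.0274).

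**Figure D4:**
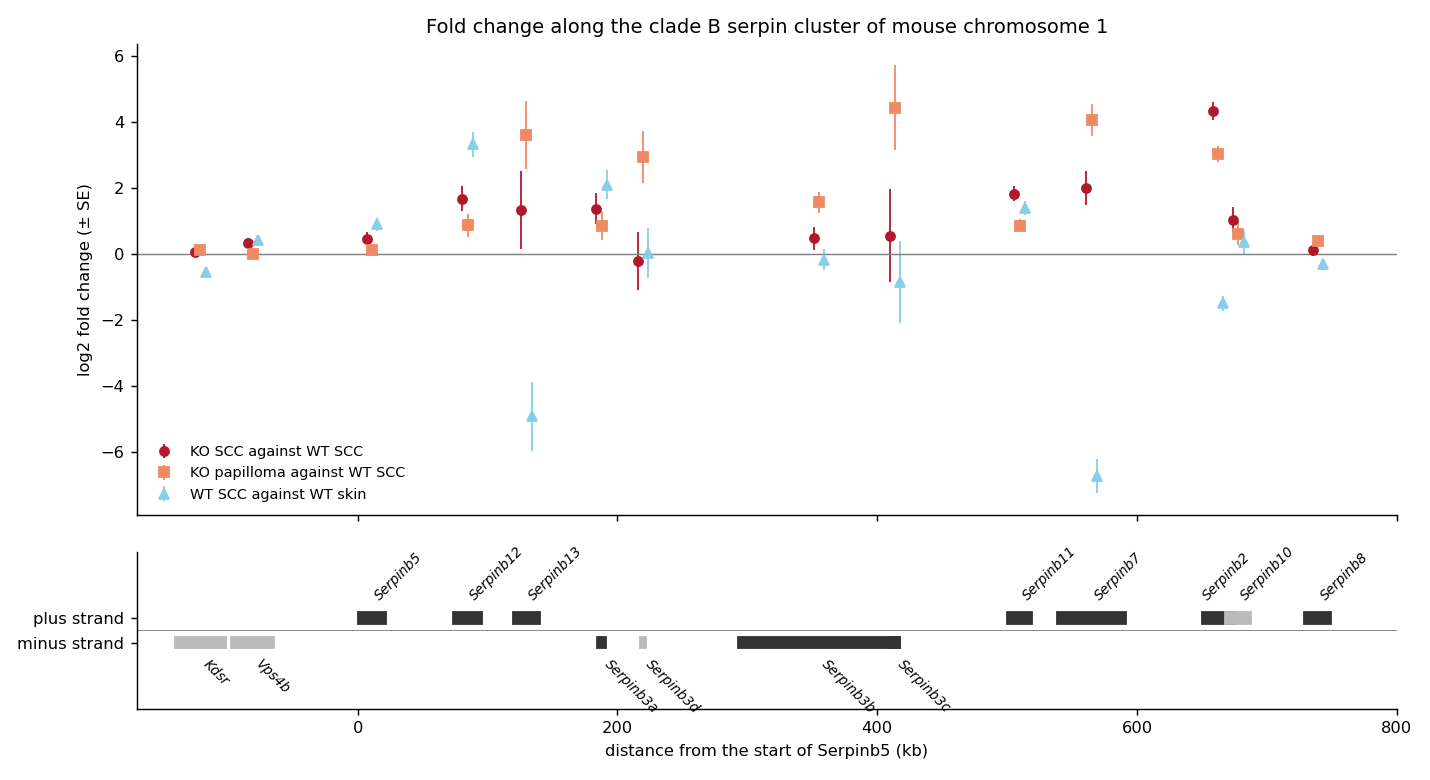
Log2 fold changes with SE at the middle of each gene along the chromosome 1 cluster (top), for 3 mouse comparisons, and the gene bodies by strand (bottom), with the 10 serpins dark and other genes pale, against the distance in kb from the start of Serpinb5. Serpinb2, 650.3 kb along, has the largest value of SCC labelled KO against WT SCC, and its neighbours Serpinb10 and Serpinb8 lie at 1.04 and 0.13.

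The 10 profiles over the 11 mouse libraries differed from each other. After log2 CPM was centred on each gene's mean, the closest pair was Serpinb3a and Serpinb11, with a root mean square difference of 0.50, and the farthest was Serpinb7 and Serpinb12, with 4.17. Outside the family, the most similar profile to Serpinb2 was that of Mal2 (0.42), which had 340 and 330 CPM in SCC labelled KO, 252, 256 and 216 CPM in papilloma labelled KO, 38.3, 25.5 and 32.2 CPM in WT SCC and 63.9, 45.2 and 54.0 CPM in WT skin. That most like Serpinb7 was Flg2, a filaggrin-family gene of the cornified layer (0.32), with 10.6 and 11.5 CPM in SCC labelled KO, 64.8, 47.2 and 55.5 CPM in papilloma labelled KO, 2.44, 2.31 and 7.62 CPM in WT SCC and 418, 467 and 319 CPM in WT skin. Serpinb11 was closest to Cers3 (0.20), a ceramide synthase, Serpinb12 to Slc7a11 (0.39), Serpinb3a to Ppm1n (0.38), Serpinb3b to Slc5a9 (0.37), Serpinb3c to Grm6 (0.96), Serpinb5 to Tcp1 (0.10), Serpinb8 to Ets1 (0.12) and Serpinb13 to Slc46a2 (0.46). Genes of little spread, such as Serpinb8, come close to others more easily by this measure.

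The fifth comparison asked the same of A431 cells, DUSP1 KO against control. Counts of SERPINB5 made up most of the sum of the 9 genes, with 759.7, 691 and 703 CPM in DUSP1 KO cells and 995, 1013 and 957 CPM in control cells, which was 74.6 to 75.6% of that sum in KO and 80.3 to 80.5% in control. SERPINB2 had 19.7, 19.7 and 17.9 CPM in DUSP1 KO cells and 33.4, 35.8 and 34.0 CPM in control cells. SERPINB13 had 14.5, 13.02 and 14.7 CPM in DUSP1 KO cells and 31.6, 36.1 and 31.7 CPM in control cells. In these 3 genes each KO library was below each control library, and so were SERPINB8, with 32.4 to 34.3 CPM in DUSP1 KO and 46.8 to 49.5 CPM in control cells, and SERPINB7, with 12.6 to 15.6 CPM in DUSP1 KO and 19.2 to 19.9 CPM in control cells. The squamous cell carcinoma antigens went the other way. SERPINB3 had 91.6, 82.6 and 80.4 CPM in DUSP1 KO cells and 70.5, 71.2 and 65.8 CPM in control cells. SERPINB4 had 71.5, 69.7 and 66.6 CPM in DUSP1 KO cells and 35.7, 36.4 and 34.1 CPM in control cells. SERPINB11 had 73, 50 and 32 counts in DUSP1 KO cells and 2, 8 and 0 counts in control cells, where it was near the lower limit. SERPINB12 was low in both groups, with 1.19 to 1.32 CPM in DUSP1 KO and 0.70 to 0.95 CPM in control cells. A floor of 3 counts corresponds to 0.0568 to 0.0728 CPM in an A431 library.

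**Figure D5:**
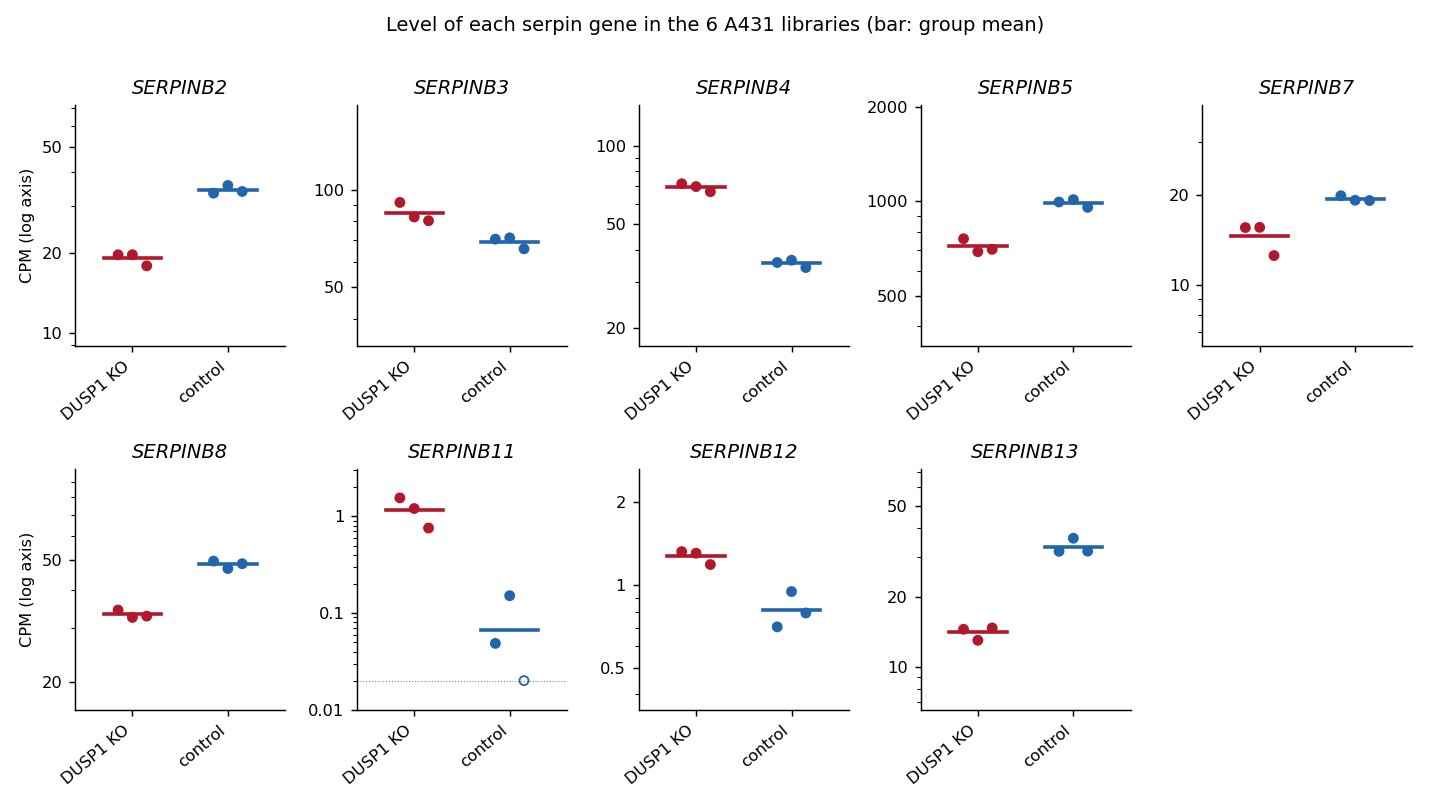
Level of each human gene in CPM on a log axis, 1 point per A431 library and a bar at the group mean, with DUSP1 KO left of control. The hollow point on the dotted line at 0.02 CPM is a control library without a SERPINB11 count. No panel shows an overlap between the groups, with SERPINB3, SERPINB4, SERPINB11 and SERPINB12 higher and the other 5 lower in DUSP1 KO.

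All 9 genes passed the threshold in A431, 4 higher and 5 lower, where 47.6% of 18090 tested genes were called (23.1% higher and 24.5% lower), and 55.0% of all genes did not overlap between the groups. SERPINB11 was 16.3-fold higher (4.02 ± 0.55, adjusted p = 1.23e-05), a fitted value that rests on 10 counts in control cells, and SERPINB4 was 1.96-fold higher (0.97 ± 0.05, 1.26e-10). SERPINB3 (0.30 ± 0.06, adjusted p = 0.00033) and SERPINB12 (0.63 ± 0.24, 0.0390) were higher by less. SERPINB13 was 2.35-fold lower (-1.23 ± 0.07, adjusted p = 4.27e-10) and SERPINB2 1.8-fold lower (-0.85 ± 0.06, 7.08e-09). SERPINB8 (-0.54 ± 0.05, adjusted p = 2.73e-07), SERPINB5 (-0.46 ± 0.04, 2.21e-07) and SERPINB7 (-0.41 ± 0.08, 0.000532) were lower by less. SERPINB3 and SERPINB4 are near-identical genes, and SERPINB4 took 43.8 to 45.8% of their summed CPM in DUSP1 KO cells and 33.6 to 34.1% in control cells, while the sum itself was higher in KO (0.56, adjusted p = 9.78e-08). The SERPINB12 call was lost without any of 5 of the 6 libraries, namely the 3 KO libraries (adjusted p = 0.0787, 0.0809 and 0.0507) and control replicates 1 and 3 (0.139 and 0.101).

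PLAT, the tissue plasminogen activator, was 3.30-fold higher in DUSP1 KO cells (1.72 ± 0.10, adjusted p = 5.29e-10), with 11.9, 11.7 and 10.8 CPM in KO and 3.23, 3.44 and 3.75 CPM in control cells, and PLAU was 1.33-fold higher (0.41 ± 0.04, 2.13e-07). FURIN and CTSV were 1.21-fold and 1.14-fold lower. Of the 4 other clade B serpins, SERPINB9 was higher (1.74-fold, adjusted p = 0.00161), and SERPINB10 (3.97-fold, 2.43e-05) and SERPINB6 (1.3-fold, 0.000317) were lower. Of 11 inhibitors of other families 6 were higher and 3 lower, with PI3 (elafin) at 1.91-fold higher and SLPI at 1.44-fold lower. Of the 6 neighbours of the human genes, BCL2, KDSR, VPS4B and SERPINB10 were lower and PHLPP1 and HMSD were not called. Suprabasal markers, 16 of 17 in the table, summed to 29102 to 30692 CPM in DUSP1 KO cells and 37125 to 39075 CPM in control cells. Of 15 tested, 6 were called higher and 4 lower. KRT1, KRT10 and KRT16 had means of 10710, 5308 and 4227 CPM in KO cells and 13375, 9641 and 5677 CPM in control cells. KRT4, KRT13 and LOR went the other way, with 772, 380 and 40.6 CPM in KO cells and 201, 183 and 19.6 CPM in control cells. The part of these markers in the serpin values was not tested.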

How the data were processed

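RNA was sequenced from 11 mouse and 6 A431 libraries with a stranded mRNA kit, per the labels' protocols. The submitters' processing notes name HISAT2, StringTie, DESeq, mm10 and hg38, without versions. The authors deposited raw counts per gene, with gene names in the tables, and no normalized values were used. Features without a gene name (1456 in mouse, 223 in A431) held 0.115 to 0.496% and 0.190 to 0.211% of counts and were left out.

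Counts were analysed with edgeR 4.0.16 (TMM scaling, filterByExpr, quasi-likelihood test), with all mouse groups in 1 fit and A431 in another, and p-values were adjusted by Benjamini-Hochberg over all 22371 and 18090 tested genes, with a threshold of 0.05. SE is the log2 fold change divided by the square root of F. CPM used TMM-scaled library sizes, which does not correct for gene length. The biological coefficient of variation was 36.6% in mouse and 6.11% in A431, so the mouse comparisons resolve only larger differences. The scripts were tested on simulated data. Sequences and starts came from RefSeq (GRCm38.p6), and human sequences were not used here.

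The serpins and the gene lists were chosen with earlier results of these data known. Alternatives were other scaling, no filter on low counts, DESeq2 1.42.0, a replicate block, summed copies and only the groups compared. Each library of the 2 groups compared was also left out in turn. A Y-chromosome covariate was added after seeing the data. Besides the listed genes, the text names the gene outside the family with the most similar profile to each serpin and those members of the lists that passed the threshold. No 2 libraries of a group held the same values, and floors of 3 counts cover counting error only.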

Additional observations from a re-analysis of the deposited data

Results flagged for a closer look

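For 3 serpins every library of SCC labelled KO lay above every WT SCC library, while every A431 DUSP1 KO library lay below every A431 control library. They were picked out because the groups moved in opposite directions. The difference between the mouse and the human comparison was not tested, since the tables were fitted separately. Over all tested genes, 22.9% were higher without overlap in this mouse comparison, and 55.0% did not overlap in A431, in either direction. Serpinb11, Serpinb12, Serpinb3a and Serpinb3b were higher without overlap in mouse, and so were SERPINB11, SERPINB12, SERPINB3 and SERPINB4 in A431. Serpinb2 had a log2 fold change of 4.32 in SCC labelled KO against WT SCC, and SERPINB2 one of -0.85 in A431. Serpinb7 had 2.0, and SERPINB7 -0.41. Serpinb5 had 0.45, which did not pass the threshold, and SERPINB5 -0.46. The mouse libraries labelled KO had no lower Dusp1 transcript, and SCC labelled KO had more of it than WT SCC, whereas DUSP1 was lower in the A431 KO cells. A check for single libraries far from their group was not applied, since no group has more than 3 libraries.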

How the results depend on the processing

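No call changed direction under any alternative. WT SCC against WT skin kept 7 calls of the 10 serpins under all alternatives. In SCC labelled KO against WT SCC, 4 were called in the main analysis, 2 with the replicate number as a block (Serpinb7 and Serpinb12 were lost, adjusted p = 0.116 and 0.0558), 3 with a Y-chromosome covariate, chosen after seeing the data (Serpinb7 lost, adjusted p = 0.0722), and 2 to 3 with 1 library left out. Calls were gained for Serpinb3a without a filter on low counts (adjusted p = 0.000837), which made 5, and for Serpinb3a and Serpinb3b with only the 2 groups compared (0.000754 and 0.0494), which made 6 of 8 tested. In papilloma labelled KO against WT SCC, 4 were called, 8 without a filter on low counts, 6 with DESeq2, 5 with only the 2 groups compared, 3 of 8 with the near copies summed, and 2 to 4 with 1 library left out. With the block 4 were called, Serpinb11 being lost (adjusted p = 0.0707) and Serpinb3c gained (0.0442). In SCC labelled KO against papilloma labelled KO, 0 were called, 5 without a filter, 4 with DESeq2, and 0 to 1 with 1 library left out. In A431, 9 were called and 8 or 9 under the alternatives, SERPINB12 being the one lost (adjusted p up to 0.145, with DESeq2). Serpinb2 kept its call in both comparisons with WT SCC under all of them. Over all genes, calls in SCC labelled KO against WT SCC numbered 1760, against 798 with the block, 3294 with DESeq2, 4160 with only the 2 groups and 302 to 975 with 1 library left out. For papilloma labelled KO against WT SCC the number was 1175, against 1854 without a filter, 2106 with DESeq2, 1797 with only the 2 groups and 478 to 1100 with 1 library left out. For SCC against papilloma labelled KO it was 64, against 611 without a filter, 818 with DESeq2, 240 with the Y-chromosome covariate, 1 with the block and 0 to 84 with 1 library left out. The cause of these differences was not tested, and fits with 1 library left out also held fewer libraries. No pairing by replicate number was seen: deviations of same-numbered libraries correlated at -0.41 to 0.17 in 15 mouse pairs and -0.03 to 0.01 in 3 A431 pairs. Mouse pairs with different numbers ran from -0.39 to 0.44. In such small groups the deviations are tied to one another, so these values cannot settle whether samples were paired. The sample descriptions also number the libraries of SCC labelled KO and of WT skin otherwise than the replicate numbers used for the block and these pairs. What those numbers mean is not stated. Depth limits Serpinb3c, Serpinb13 and, in control A431 cells, SERPINB11, whose fold changes rest on few counts. The fold changes of Serpinb7 with WT SCC rest on 0.35 to 1.42 CPM in that group.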
